A study of Homo sapiens with 8 samples.

Results

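The PI15 and CRISPLD1 locus was taken as the 1 Mb of human chromosome 8 (hg38) around both genes, whose first peak starts at position 74568607 and whose last peak ends at position 75484133. All of its 82 accessible peaks, of 159451 peaks in the genome, were followed in 8 ATAC-seq libraries. ATAC-seq inserts sequencing adapters into open DNA with the Tn5 transposase, so a high peak marks a site where chromatin is accessible. All libraries came from the established ovarian cancer line A2780, whose genotype is given as WT, with 2 libraries per line. The dual-resistant line (TxCpR) was labelled with cisplatin and paclitaxel as treatment, the paclitaxel-resistant line (TxR) with paclitaxel and the cisplatin-resistant line (CpR) with cisplatin. The control line carried no treatment. Cisplatin crosslinks DNA and paclitaxel stabilises microtubules. The labels do not say whether drug was present at collection, or whether a resistant line was 1 clone or a pool. The locus was chosen by the level of the PI15 peak, which was low in paclitaxel-resistant against control cells, so values of that contrast are given as a description only. The nearest peak outside the low boundary, at chr8:74415933-74416933, averaged 2.12 CPM in dual-, 1.34 CPM in paclitaxel- and 1.82 CPM in cisplatin-resistant cells and 2.01 CPM in control cells. The first peak inside it, at chr8:74568607-74569607, averaged 0.925, 0.940 and 3.28 CPM in the same 3 resistant lines and 0.647 CPM in control cells.

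PI15 and CRISPLD1 are neighbours of the CAP superfamily, a group of mostly secreted proteins named after cysteine-rich secretory proteins, antigen 5 and pathogenesis-related 1 proteins. PI15 (peptidase inhibitor 15) is a secreted protein described as an inhibitor of trypsin, and CRISPLD1 is a secreted CAP protein that also carries LCCL domains. A gene is usually accessible at its promoter when it is active or poised, and distal accessible sites around it often include enhancers. Both genes run toward higher coordinates, so the low end of each span holds its annotated start. In the RefSeq table of GRCh38.p14, PI15 spans chr8:74824534-74855029 and CRISPLD1 spans chr8:74984505-75034558. Before PI15 lies MIR2052HG, a long non-coding RNA gene at chr8:74599757-74758352 that hosts the microRNA gene MIR2052. After CRISPLD1 lie CASC9, a long non-coding RNA gene at chr8:75223117-75278889, and HNF4G, which encodes the nuclear receptor HNF4-gamma and starts at chr8:75407649. Of the 82 peaks, 16 overlapped the span of PI15, 2 that of CRISPLD1, 14 that of MIR2052HG, 2 that of CASC9 and 3 that of HNF4G. The table gives no exons, so whether a peak lies in an exon or an intron was not resolved.

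The libraries held 7693492 to 9304798 reads in peaks, and 3 reads, the limit that a count of 0 allows, stood for 0.322 to 0.390 CPM (counting error only). Values are CPM, reads scaled to the same total over all peaks in each library, over peaks of 1001 bp, and differences are log2(CPM + 0.5) with limma's standard error (SE) and a Benjamini-Hochberg adjusted p over 158698 tested peaks. No source says that the libraries of a line came from separate cultures, so p-values measure only the spread between libraries, which may be technical. The SE is drawn largely from all peaks of like level rather than from the 2 libraries of a peak. In bulk samples, fewer cells with an open site and less openness per cell cannot be told apart. DNA copy number was not measured, and its part in the results was not tested. Among markers of the ovarian line, gene-end peaks of EPCAM averaged 8.17 to 14.6 CPM and those of VIM 32.4 to 64.4 CPM in the 4 lines, PAX8 averaged 0.636 to 4.01 CPM, and MUC16 had no gene-end peak. Of 11 markers of fibroblasts, blood and endothelial cells, 8 had a gene-end peak, and PTPRC, PECAM1 and CDH5 had none. Summed over the 4 fibroblast markers, the levels were 39.2 and 39.5 CPM in dual-, 61.1 and 63.3 CPM in paclitaxel- and 39.8 and 42.4 CPM in cisplatin-resistant libraries, against 29.2 and 27.4 CPM in control libraries. Within that list DCN and LUM averaged 14.8 and 25.8 CPM in paclitaxel-resistant cells, against 0.515 and 1.42 CPM in control cells, whereas COL1A1 averaged 15.6 CPM in paclitaxel-resistant and 20.4 CPM in control cells. The single endothelial marker with a peak, KDR, had 3.09 and 2.58 CPM in dual-, 1.34 and 1.80 CPM in paclitaxel- and 4.05 and 2.10 CPM in cisplatin-resistant libraries, against 9.23 and 11.97 CPM in control libraries. The blood markers summed to 20.8 to 38.7 CPM over the 8 libraries. The part of these markers in the locus was not tested. Each peak carries the name of the line it was taken from, and 80 of the 82 peaks carried a cisplatin-resistant name and 2 a dual-resistant name, whereas over all peaks 34.3% carried a cisplatin-resistant name.

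At the start of PI15, chromatin was open in cisplatin-resistant and control cells and near the floor in the other lines. The start peak, at chr8:74823518-74824518, had 0.247 and 0.967 CPM in dual-resistant libraries, 0.364 and 0.674 CPM in paclitaxel-resistant libraries, 55.3 and 57.6 CPM in cisplatin-resistant libraries and 32.4 and 26.6 CPM in control libraries. All 4 libraries of the dual- and paclitaxel-resistant lines lay far below all 4 of the cisplatin-resistant and control lines, and the cisplatin-resistant libraries lay above the control libraries. These levels stood for 2 and 9 reads in dual-, 3 and 6 reads in paclitaxel- and 491 and 493 reads in cisplatin-resistant libraries, against 249 and 207 reads in control libraries. Within a library, the peak stood above 3.58% and 13.4% of all peaks in dual-, 4.89% and 13.8% in paclitaxel- and 98.9% and 99.0% in cisplatin-resistant libraries, against 96.2% and 95.1% in control libraries. It was thus among the strongest sites of the genome in the lines where it was open and among the weakest in the others.

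The start peak of PI15 was lower in dual- than in cisplatin-resistant cells by a log2 difference of -5.76 (SE 0.27, limma adjusted p = 1.55e-36), a comparison that shares no library with the one from which the locus was chosen. It was lower in dual-resistant than in control cells by -4.83 (SE 0.27, limma adjusted p = 1.69e-30). This and the other comparisons of the peak below use its control or paclitaxel-resistant values, by which the locus was chosen. Their p-values are thus not independent of that choice. Between dual- and paclitaxel-resistant cells the difference was 0.06 (SE 0.27, limma adjusted p = 0.911), and below 0 under median-ratio, TMM and quantile scaling, with 2 to 9 reads behind each value, so a difference between these lines was not detectable at this depth. The peak was higher in cisplatin-resistant than in control cells by 0.93 (SE 0.27, limma adjusted p = 0.00354). That increase was not called with the median of the flanking peaks subtracted in each library (0.33, limma adjusted p = 0.573), without cisplatin-resistant replicate 2 (0.90, limma adjusted p = 0.0640) or without control replicate 2 (0.79, limma adjusted p = 0.0930). The paclitaxel-resistant difference from control, which chose the locus, was -4.89 on the same scale.

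**Figure D1:**
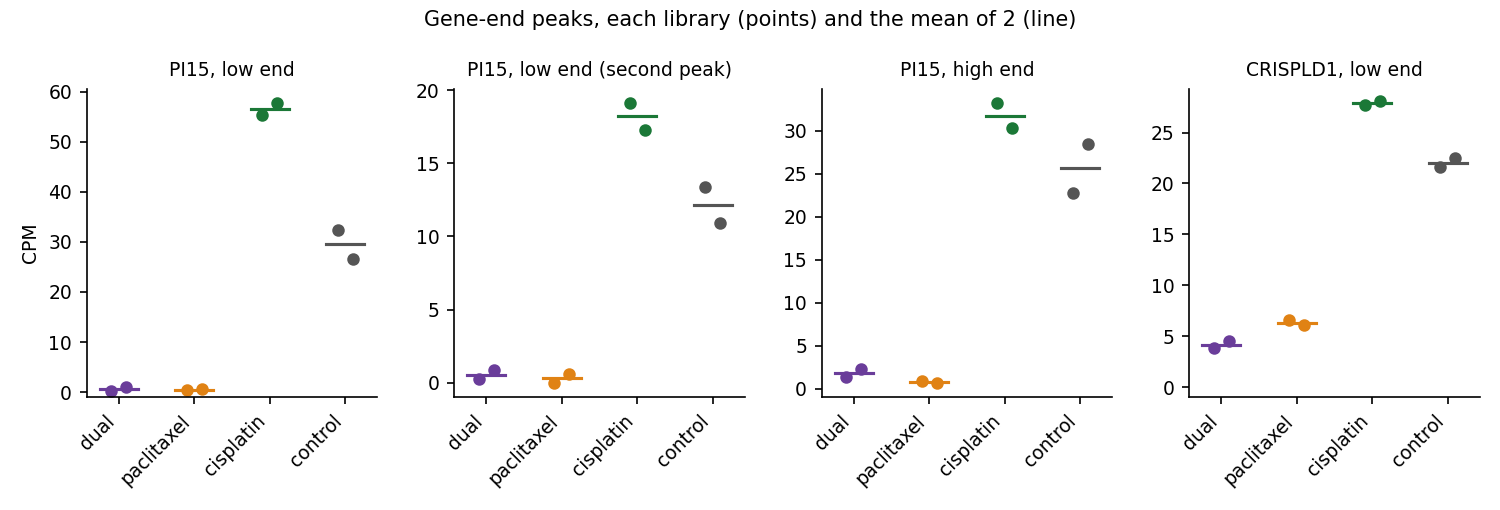
Level in CPM of the 3 peaks at the ends of PI15 and of the peak at the low end of CRISPLD1. Each point is 1 library and each line the mean of 2 libraries, and at each peak both cisplatin-resistant and both control libraries lie above all libraries of the dual- and paclitaxel-resistant lines.

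The other peaks at the ends of PI15 followed the start peak. Directly beside it, at chr8:74824557-74825557 inside the gene, the level was 0.247 and 0.860 CPM in dual-, 0 and 0.562 CPM in paclitaxel- and 19.1 and 17.3 CPM in cisplatin-resistant libraries, against 13.4 and 10.9 CPM in control libraries. The groups again separated, with cisplatin-resistant libraries above control libraries and both above the rest. Its log2 difference was -4.21 between dual- and cisplatin-resistant cells (SE 0.35, limma adjusted p = 7.02e-19) and -3.64 between dual-resistant and control cells (SE 0.35, limma adjusted p = 2.64e-15), while that between cisplatin-resistant and control cells, 0.57, did not pass (limma adjusted p = 0.219). At the far end of the gene, at chr8:74855448-74856448, the level was 1.36 and 2.26 CPM in dual-, 0.850 and 0.674 CPM in paclitaxel- and 33.2 and 30.3 CPM in cisplatin-resistant libraries, against 22.7 and 28.4 CPM in control libraries. Here both dual-resistant libraries lay above both paclitaxel-resistant ones, by a log2 difference of 0.85 (SE 0.25, limma adjusted p = 0.00810), which did not pass without dual-resistant replicate 2 (0.56, limma adjusted p = 0.187) or without paclitaxel-resistant replicate 2 (0.75, limma adjusted p = 0.0526). It also did not pass with quantile scaling (0.52, limma adjusted p = 0.159), with flank subtraction (0.03, limma adjusted p = 0.971), at a pseudocount of 2 (0.45, limma adjusted p = 0.0710), in a fit of these 2 lines alone (limma adjusted p = 0.198) or with DESeq2 (adjusted p = 0.0731). The dual-resistant level was still lower than the control level by -3.52 (SE 0.25, limma adjusted p = 8.31e-23).

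At the start of CRISPLD1 the lines separated in the same direction as at PI15, with smaller log2 differences. Its start peak, at chr8:74984123-74985123 and 160.6 kb after the PI15 start peak, had 3.83 and 4.51 CPM in dual-, 6.56 and 6.07 CPM in paclitaxel- and 27.7 and 28.1 CPM in cisplatin-resistant libraries, against 21.6 and 22.5 CPM in control libraries. No libraries of different lines overlapped, and the order of the lines was cisplatin-resistant, control, paclitaxel-resistant and dual-resistant. The log2 difference was -2.61 between dual- and cisplatin-resistant cells (SE 0.19, limma adjusted p = 4.92e-22) and -2.27 between dual-resistant and control cells (SE 0.19, limma adjusted p = 2.37e-18). Between cisplatin-resistant and control cells it was 0.33 and did not pass (limma adjusted p = 0.186). The dual-resistant line was lower than the paclitaxel-resistant line by -0.55 (SE 0.19, limma adjusted p = 0.0293), whereas edgeR on whole reads gave -0.59 (adjusted p = 0.0749). The call was also lost without dual-resistant replicate 1 (-0.44, limma adjusted p = 0.187), without paclitaxel-resistant replicate 1 (-0.49, limma adjusted p = 0.141) and without paclitaxel-resistant replicate 2 (-0.60, limma adjusted p = 0.0622). Rescaling the libraries made the difference larger, at -0.77 with median-ratio (limma adjusted p = 0.00118), -0.78 with TMM (limma adjusted p = 0.00101) and -0.79 with quantile scaling (limma adjusted p = 0.00129), and flank subtraction gave -1.36 (limma adjusted p = 0.000216). Unlike the PI15 start peak, this peak did not fall to the floor: it stood above 60.5% and 66.8% of all peaks in dual-, 80.8% and 79.4% in paclitaxel- and 96.0% and 96.0% in cisplatin-resistant libraries, against 93.7% and 94.1% in control libraries. No peak lay within 1 kb of the far end of CRISPLD1.

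Across the locus, chromatin was lower in dual- than in cisplatin-resistant cells at 74 of 82 peaks (90.2%) and higher at 1, while 19.9% of all tested peaks were called lower and 21.9% higher in this comparison. Against control cells, 56 of 82 peaks (68.3%) were lower in dual-resistant cells and 0 were higher, against 5.39% and 8.11% of all tested peaks. None was higher at an unadjusted p under 0.05 (0 of 82), nor by edgeR (0) or DESeq2 (0) on whole reads. This comparison and that of cisplatin-resistant with control cells share the control libraries with the one that chose the locus. In cisplatin-resistant against control cells, 39 peaks (47.6%) were higher and 1 was lower, against 18.3% and 14.9% of all tested peaks. The median log2 difference over the 82 peaks was -3.19 between dual- and cisplatin-resistant cells, -2.08 between dual-resistant and control cells and 0.92 between cisplatin-resistant and control cells. Over all tested peaks these medians were 0.16, 0.08 and -0.09. All 82 peaks passed the filter on low values, but 11 of them passed through the cisplatin-resistant libraries alone and so had to be higher there. Among the other 71 peaks, 63 were called lower in dual- than in cisplatin-resistant cells, 56 lower in dual-resistant than in control cells and 29 higher in cisplatin-resistant than in control cells.

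**Figure D2:**
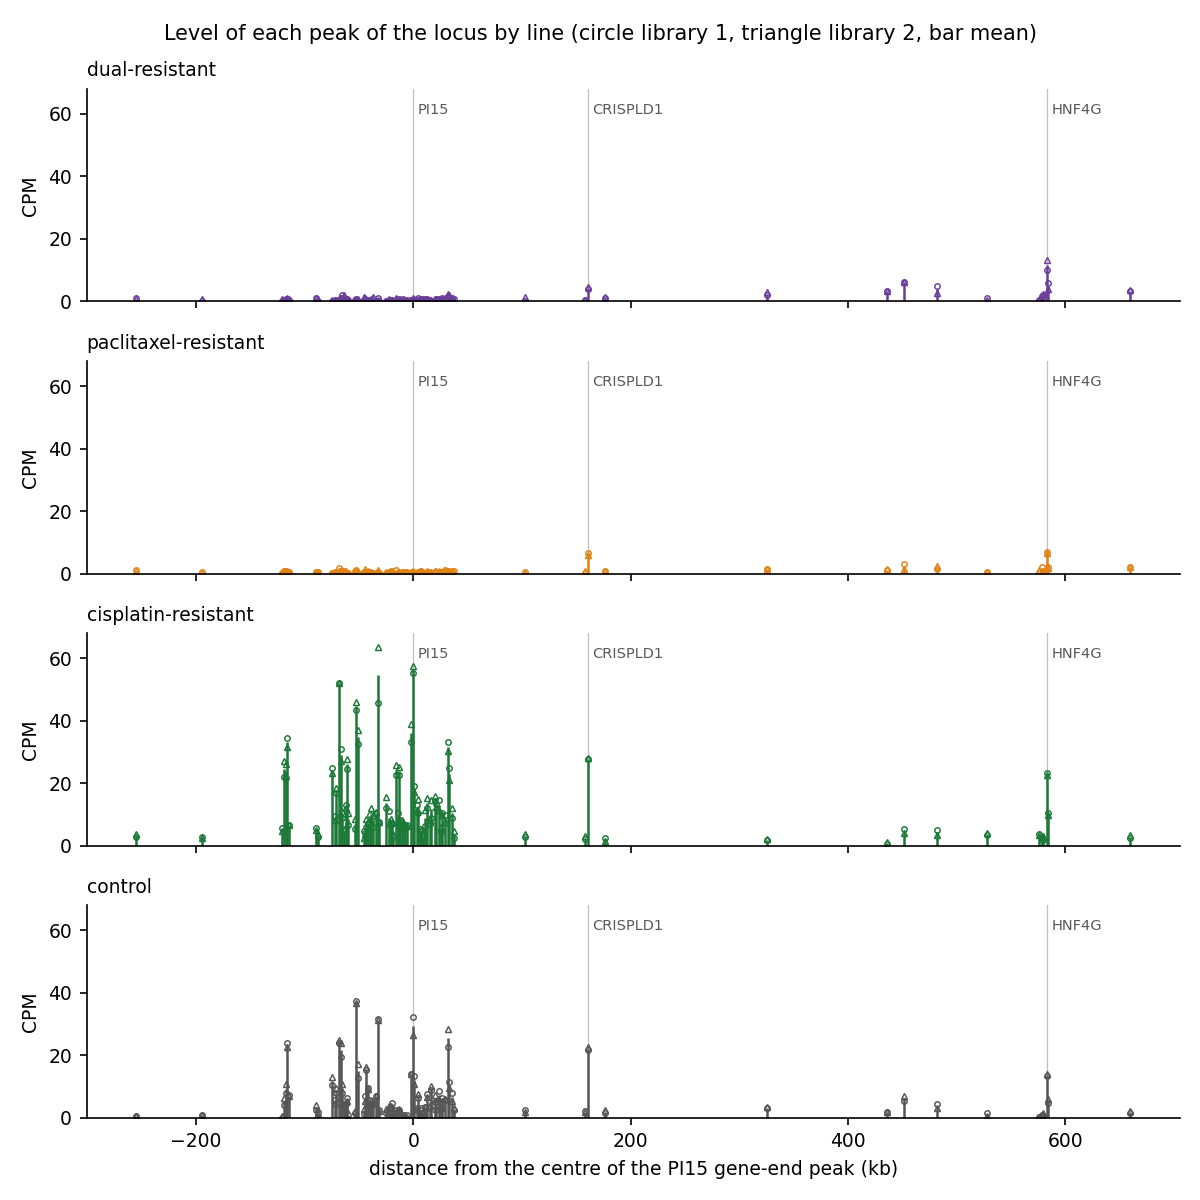
Level in CPM of each of the 82 peaks against distance in kb from the centre of the PI15 start peak, with 1 panel per line. Circles are library 1, triangles library 2 and bars the mean, and the block of peaks around PI15 is tall in cisplatin-resistant and control cells and flat in dual- and paclitaxel-resistant cells, while the group near HNF4G is present in all 4 lines.

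The signal was concentrated around PI15. The 2 bins of 100 kb next to each other that hold PI15 and the stretch before it contained 65 of the 82 peaks, in a block from chr8:74702829-74862312. This block was delimited after its values were seen. It spanned 159.5 kb, with a median gap of 708 bp between peaks, and the next peak after it was 64.3 kb away. The block took 269 and 371 reads in dual-, 228 and 269 reads in paclitaxel- and 8209 and 8525 reads in cisplatin-resistant libraries, against 3682 and 3796 reads in control libraries. That was 40.8% and 44.2% of the reads of the locus in dual-, 46.6% and 51.3% in paclitaxel- and 90.1% and 90.7% in cisplatin-resistant libraries, against 87.7% and 87.2% in control libraries. The highest line mean of any of its peaks was 1.81 CPM in dual-resistant and 1.25 CPM in paclitaxel-resistant cells. In cisplatin-resistant cells it was 56.5 CPM and in control cells 37.1 CPM. The median peak of the block had 0.478 CPM in dual-, 0.407 CPM in paclitaxel- and 9.11 CPM in cisplatin-resistant cells, against 4.72 CPM in control cells. No peak of the block thus stood apart from the rest by staying open in the dual- or paclitaxel-resistant line.

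The low lines were not empty. A read was found in 58 and 60 of the 65 peaks in dual-resistant libraries and in 58 and 63 in paclitaxel-resistant libraries, against 65 and 65 in cisplatin-resistant and 63 and 64 in control libraries. More than 3 reads were found in 31 and 45 peaks in dual- and in 27 and 38 peaks in paclitaxel-resistant libraries. Whether such low levels lie above the background between peaks cannot be read from a matrix of peaks. Across the 65 peaks, the log2 levels of cisplatin-resistant and control cells had a Pearson r of 0.723, and those of dual- and paclitaxel-resistant cells 0.413. With control cells, r was 0.422 for dual-resistant and 0.336 for paclitaxel-resistant cells. Between dual- and cisplatin-resistant cells it was 0.219. These are descriptions over peaks that share libraries, depth and base composition.

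Distal peaks, those more than 1 kb from the ends of PI15 and CRISPLD1, numbered 78. In dual- against cisplatin-resistant cells, 74 of the 78 (94.9%) lay on the same side as the PI15 start peak, whereas 42.2% of all tested peaks lay on that side. In dual-resistant against control cells 68 of 78 (87.2%) did, against 44.0% of all tested peaks. In cisplatin-resistant against control cells 70 of 78 (89.7%) lay on the higher side, against 45.4% of all tested peaks. The order of the PI15 start peak, with cisplatin-resistant above control and both above the other lines, was found at 61 of the 78 distal peaks. The 11 peaks that passed the filter through the cisplatin-resistant libraries alone are among these distal peaks and had to be higher there. Their side in the comparisons with cisplatin-resistant cells was thus set in advance, as was the place of that line in their order. Peaks of 1 locus are not replicates, and these counts describe the locus.

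By position, the 46 distal peaks before PI15 and the 15 inside it carried most of the change. In dual- against cisplatin-resistant cells, all 46 peaks before PI15, all 15 inside it and all 5 between the genes were called lower, with medians of -3.44, -3.19 and -2.13, counting the peaks that passed the filter through cisplatin-resistant libraries alone. In dual-resistant against control cells, 35 of 46, 13 of 15 and 4 of 5 were called lower, with medians of -2.27, -2.14 and -1.94. The only distal peak inside CRISPLD1, at chr8:74999740-75000740, did not pass in either comparison, with log2 differences of -0.48 (limma adjusted p = 0.404) and -0.48 (limma adjusted p = 0.550). After CRISPLD1, 0 of 11 peaks were called in dual-resistant against control cells by limma, 0 passed at an unadjusted p under 0.05, and edgeR and DESeq2 called 0, with a median of 0.02. The 4 gene-end peaks and 52 of the 78 distal peaks made up the 56 that were called lower than control.

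Several distal peaks had nearly the pattern of the PI15 start peak over the 4 lines. Likeness was measured as the root mean square difference of the 4 line means of log2(CPM + 0.5), each centred on its own mean. On this scale 0 is an identical pattern. The added 0.5 shrinks the differences of weak peaks, so the measure also depends on height. The peak at chr8:74852449-74853449, for example, differed by 1.46, although its Pearson r with the start peak over the 4 lines was 0.9995. The most alike, at chr8:74791098-74792098 and 32.4 kb before the start peak, differed by 0.13. It had 1.11 and 0.430 CPM in dual-, 0.486 and 1.01 CPM in paclitaxel- and 45.7 and 63.6 CPM in cisplatin-resistant libraries, against 31.6 and 31.3 CPM in control libraries. Its libraries separated as at PI15, with a log2 difference of -5.47 between dual- and cisplatin-resistant cells (limma adjusted p = 4.18e-36). The peak at chr8:74773037-74774037, 50.5 kb before the start peak, differed by 0.17, and the peaks at chr8:74771140-74772140 and chr8:74707621-74708621, 52.4 kb and 115.9 kb before it, by 0.27 and 0.28. At 15 of the 78 distal peaks the difference was under 1, and the median over the 78 was 1.39. This is a description over 4 lines.

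The peak at chr8:74771140-74772140, which lies outside any listed gene, was the highest of the locus in control cells. It had 0.742 and 0.860 CPM in dual-, 1.09 and 0.225 CPM in paclitaxel- and 43.6 and 46.1 CPM in cisplatin-resistant libraries, against 37.3 and 36.8 CPM in control libraries. With PI15 it had the largest dual-resistant decrease from control among peaks that averaged at least 3 CPM in the higher line, at -4.85 (SE 0.27, limma adjusted p = 1.65e-31). Unlike PI15, it did not pass between cisplatin-resistant and control cells (0.27, limma adjusted p = 0.455).

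Inside MIR2052HG, the long non-coding RNA gene before PI15, all 14 peaks were called lower in dual- than in cisplatin-resistant cells. In dual-resistant against control cells 12 of 14 were called lower, with a median of -2.91. Of all tested peaks, 19.9% and 5.39% were called lower in these comparisons. Among the 14 peaks, that at chr8:74702829-74703829 passed the filter through the cisplatin-resistant libraries alone, so it had to be lower in dual- than in cisplatin-resistant cells. The strongest of them, at chr8:74755134-74756134, had 0.495 and 0.537 CPM in dual-, 1.82 and 0.674 CPM in paclitaxel- and 52.0 and 52.0 CPM in cisplatin-resistant libraries, against 23.92 and 24.97 CPM in control libraries. Both dual-resistant libraries lay below both paclitaxel-resistant ones there, by -0.70 (limma adjusted p = 0.0380), on 4 and 5 reads in dual- and 15 and 6 reads in paclitaxel-resistant libraries. It is 1 of 3 peaks of the locus called lower in this comparison, and that count was 1 at a pseudocount of 1 and 0 at a pseudocount of 2. At the far end of MIR2052HG, the peak at chr8:74756634-74757634 was lower in dual-resistant than in control cells by -4.01 (limma adjusted p = 1.98e-24). At the ends of MIR2052, the peak at chr8:74705971-74706971 had 0.866 and 0.860 CPM in dual-, 0.850 and 0.112 CPM in paclitaxel- and 21.6 and 26.3 CPM in cisplatin-resistant libraries, against 7.80 and 10.8 CPM in control libraries. It was higher in cisplatin-resistant than in control cells by 1.33 (limma adjusted p = 0.000688).

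Cisplatin-resistant and control cells differed unevenly along the block. Of its 65 peaks, 33 were called higher and 1 lower in cisplatin-resistant cells, and among the 56 peaks that did not pass the filter through the cisplatin-resistant libraries alone, 25 were called higher. In a stretch of 8 peaks from 16.2 to 5.7 kb before the PI15 start peak, the log2 differences were 1.78 to 3.45. The stretch was chosen after its values were seen and 5 of its 8 peaks passed the filter through the cisplatin-resistant libraries alone, so its values are a description. Their line means were 6.09 to 24.1 CPM in cisplatin-resistant cells and 0.194 to 2.78 CPM in control cells. The peak at chr8:74811604-74812604 had 6.19 and 8.07 CPM in cisplatin-resistant libraries, against 0.130 and 0.257 CPM in control libraries, which are at or under the floor. Its log2 difference was 3.45, beside 3.44 at the next peak, at chr8:74812671-74813671. No test is given for these peaks, because both passed the filter on low values through the cisplatin-resistant libraries alone. These sites were therefore close to undetected in control cells although the PI15 start peak nearby was strong there.

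In a second stretch the lines differed less, with values on both sides of 0. Among 4 peaks from 45.7 to 41.9 kb before the PI15 start peak, also chosen after their values were seen, the log2 differences between cisplatin-resistant and control cells were -1.08 to 0.66, and 1 of the 4 was called. The peak at chr8:74780438-74781438 had 5.96 and 8.65 CPM in cisplatin-resistant libraries, against 15.2 and 16.4 CPM in control libraries, and was the only peak of the locus called lower (-1.08, limma adjusted p = 0.0139). No peak was called lower without cisplatin-resistant replicate 1, control replicate 1 or control replicate 2. In dual- and paclitaxel-resistant cells both stretches were low, with line means of at most 0.884 and 0.917 CPM. The increase in cisplatin-resistant cells over the whole locus depended on its surroundings: with the median of the flanking peaks subtracted in each library, 13 peaks were called higher and 2 lower. The count of higher peaks was 21 without cisplatin-resistant replicate 1 and 17 without cisplatin-resistant replicate 2.

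The dual- and paclitaxel-resistant lines, which are both low at PI15, had few called differences over the locus as a whole, but more after CRISPLD1. Of 82 peaks, 7 (8.54%) were called higher and 3 (3.66%) lower in dual-resistant cells, against 14.9% and 7.44% of all tested peaks, so neither share exceeded the background. The paclitaxel-resistant libraries compared here were also among those by which the locus was chosen. After CRISPLD1, 5 of 11 peaks were called higher in dual-resistant cells, with a median log2 difference of 0.72, while edgeR called 4 and DESeq2 3. The calls among the higher included 2 peaks of CASC9 and 2 peaks at the start of HNF4G, all after CRISPLD1, and the peak at the far end of PI15. The peak of CASC9 at chr8:75274937-75275937 had 6.18 and 6.34 CPM in dual-resistant libraries, against 2.91 and 1.35 CPM in paclitaxel-resistant libraries (log2 difference 1.43, limma adjusted p = 0.000104). The median over the locus, 0.24, was close to 0.23 over all tested peaks. A p that misses the threshold does not show that these lines are alike at the block, where most peaks had few reads in both.

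Paclitaxel-resistant cells were lower than cisplatin-resistant cells at 77 of 82 peaks and higher at 0 by limma (0 at an unadjusted p under 0.05, 0 by edgeR and 0 by DESeq2), against 23.4% and 15.3% of all tested peaks, with a median log2 difference of -3.33 over the locus and -0.06 over all tested peaks. The PI15 start peak differed by -5.82 (SE 0.27, limma adjusted p = 4.14e-37) and that of CRISPLD1 by -2.06 (SE 0.19, limma adjusted p = 1.89e-16). With the flank median subtracted, the CRISPLD1 difference was -0.64 and did not pass (limma adjusted p = 0.0799). The 77 include peaks that passed the filter through the cisplatin-resistant libraries alone and so had to be lower in paclitaxel-resistant cells. Among the 71 other peaks of the locus, 66 were called lower and 0 higher. This comparison shares the paclitaxel-resistant libraries with the one that chose the locus. In paclitaxel-resistant against control cells, 60 of 82 peaks were at least 2-fold lower and 0 at least 2-fold higher, against 8.33% and 5.80% of all tested peaks, and the differences were -4.89 at the PI15 start peak, -4.36 at its far end and -1.73 at the CRISPLD1 start peak. These values describe the contrast by which the locus was chosen, and no test is given for them.

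Beyond CRISPLD1 the lines behaved differently. After the peak inside CRISPLD1 came a gap of 148.1 kb without a peak, and then 11 peaks up to the end of the locus. The start of HNF4G, at chr8:75406675-75407675 and 583.2 kb after the PI15 start peak, was the strongest, with 10.1 and 13.2 CPM in dual-, 7.04 and 6.63 CPM in paclitaxel- and 23.3 and 22.6 CPM in cisplatin-resistant libraries, against 13.4 and 13.9 CPM in control libraries. The cisplatin-resistant libraries were highest, as at PI15, but the dual-resistant libraries lay just under control rather than near the floor. The log2 difference between dual-resistant and control cells was -0.23 (limma adjusted p = 0.488), while cisplatin-resistant cells exceeded control cells by 0.73 (limma adjusted p = 0.00101) and dual-resistant exceeded paclitaxel-resistant cells by 0.72 (limma adjusted p = 0.00201). In CASC9, the peak at chr8:75259061-75260061 had 3.46 and 3.44 CPM in dual- and 0.675 and 1.17 CPM in cisplatin-resistant libraries, and was the only peak of the locus called higher in dual- than in cisplatin-resistant cells (1.496, limma adjusted p = 0.00274). It was not called without cisplatin-resistant replicate 1.

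To set the locus against its surroundings, 141 tested peaks in the flanks, 2.5 Mb on either side, were summarised. Between dual-resistant and control cells their median log2 difference was -0.08, with 13 called lower and 6 higher. Between dual- and cisplatin-resistant cells it was -0.45, with 61 lower and 15 higher, and between cisplatin-resistant and control cells 0.33, with 47 higher and 9 lower. Between paclitaxel- and cisplatin-resistant cells it was -0.97, with 77 lower and 0 higher by limma, at an unadjusted p under 0.05 and by edgeR and DESeq2. In these 4 comparisons the flank medians had the same sign as those of the locus and were smaller. Between dual- and paclitaxel-resistant cells the flank median was 0.41, with 32 higher and 5 lower. Of all tested peaks, 5.39% were lower and 8.11% higher in dual-resistant against control cells, and 19.9% and 21.9% in dual- against cisplatin-resistant cells. In cisplatin-resistant against control cells 18.3% were higher and 14.9% lower. In paclitaxel- against cisplatin-resistant cells 23.4% were lower and 15.3% higher, and in dual- against paclitaxel-resistant cells 14.9% were higher and 7.44% lower. With the flank median subtracted, the PI15 start peak and the locus stayed lower in dual-resistant than in control cells by the same test.

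**Figure D3:**
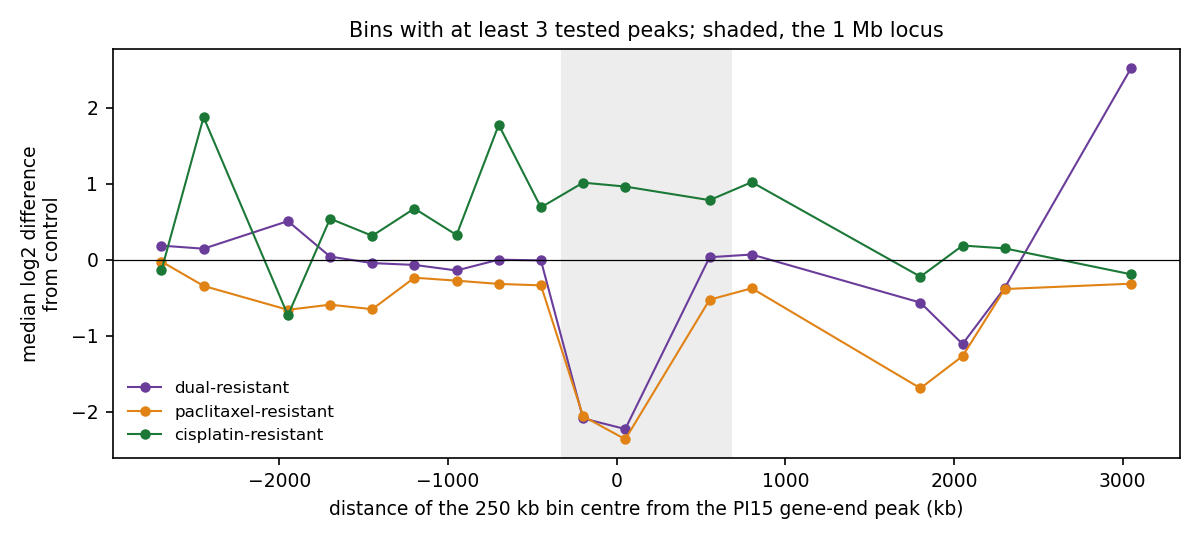
Median log2 difference from control of the peaks in bins of 250 kb, against the distance of the bin centre from the PI15 start peak in kb, for the 3 resistant lines. Bins with at least 3 tested peaks are drawn and the shading marks the 1 Mb locus; dual- and paclitaxel-resistant medians reach -2.23 and -2.36 in the bin that holds PI15, while the paclitaxel-resistant medians are below 0 in each bin drawn.

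Protein-coding neighbours from position 72000000 to 78000000 varied. Besides PI15 and CRISPLD1, 15 of 17 such genes had a peak within 1 kb of an end, and 2 of the 15 were called lower and 0 higher in dual-resistant against control cells by limma (1 higher at an unadjusted p under 0.05, 1 by edgeR and 0 by DESeq2), against 14.8% and 4.86% of all gene-end peaks. They were PEX2, a peroxisome biogenesis gene (-0.37, limma adjusted p = 0.00161), and JPH1, which encodes junctophilin 1, a protein that links the plasma membrane to the sarcoplasmic reticulum in muscle. The JPH1 peak was lower by -2.41 (limma adjusted p = 2.53e-13). This peak, 503.3 kb before that of PI15, had 1.11 and 3.44 CPM in dual-, 5.10 and 4.94 CPM in paclitaxel- and 15.4 and 14.7 CPM in cisplatin-resistant libraries, against 13.5 and 12.4 CPM in control libraries. Its level was thus below control in both lines that were low at PI15. It was lower in dual- than in paclitaxel-resistant cells by -1.13 (limma adjusted p = 0.000379). GDAP1, a mitochondrial membrane protein gene between JPH1 and PI15, averaged 35.4 ± 3.3 CPM in dual- and 32.5 ± 2.9 CPM in paclitaxel-resistant cells (SD, n = 2). The averages of GDAP1 were 45.3 ± 2.5 CPM in cisplatin-resistant and 41.2 ± 2.4 CPM in control cells. In cisplatin-resistant against control cells, 6 of the 15 were higher and 0 lower by limma (0 at an unadjusted p under 0.05, 0 by edgeR and 0 by DESeq2), against 11.1% and 28.6% of all gene-end peaks, and RPL7 and RDH10 share 1 of these peaks. In dual- against cisplatin-resistant cells, 8 of the 15 were lower and 0 higher by limma (0 at an unadjusted p under 0.05, 0 by edgeR and 0 by DESeq2), against 16.9% and 19.6% of all gene-end peaks.

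In each single comparison of dual-resistant cells, and in cisplatin-resistant against control cells, most other members of the CAP superfamily were not called. The members that were called differed between comparisons. Of 15 listed genes 11 had a gene-end peak, and without PI15 and CRISPLD1 there were 9. In dual-resistant against control cells, 2 of the 9 were higher and 0 lower by limma, and in cisplatin-resistant against control cells 4 were higher and 0 lower, with 0 lower in both at an unadjusted p under 0.05, by edgeR and by DESeq2. Over all gene-end peaks 4.86% were higher and 14.8% lower in dual-resistant, and 11.1% higher and 28.6% lower in cisplatin-resistant cells. In dual- against cisplatin-resistant cells 2 of the 9 were higher and 2 lower (22.2% each), close to 19.6% and 16.9% of all gene-end peaks. In paclitaxel- against cisplatin-resistant cells 3 of the 9 were higher and 2 lower (33.3% and 22.2%), against 34.5% and 13.1% of all gene-end peaks. GLIPR1L2, whose product is related to glioma pathogenesis-related protein 1, averaged 37.3 CPM in dual-, 40.5 CPM in paclitaxel- and 9.38 CPM in cisplatin-resistant cells, against 1.55 CPM in control cells. Its dual-resistant level exceeded the control level by 4.20 on the log2 scale (limma adjusted p = 1.78e-37), whereas PI15 was lower there, and its cisplatin-resistant level exceeded the control level by 2.25 (limma adjusted p = 8.47e-19), the direction PI15 took. GLIPR1L1 was also higher in dual-resistant than in control cells, by 0.88 (limma adjusted p = 0.000571). CRISPLD2, the closest relative of CRISPLD1, averaged 11.5 CPM in dual-, 16.9 CPM in paclitaxel- and 11.5 CPM in cisplatin-resistant cells, against 11.9 CPM in control cells. GLIPR1, PI16 and CLEC18A were higher in cisplatin-resistant than in control cells by 1.46, 1.06 and 2.46, the last with uncertainty because the CLEC18 genes are near-identical copies. The CLEC18A peak passed the filter on low values only with the cisplatin-resistant libraries counted. Its side in the comparisons with cisplatin-resistant cells was thus set in advance, and it is among the calls counted above for them.

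Elsewhere in the genome, the gene-end peaks most like that of PI15 over the 4 lines belonged to ZNF613, IFT70A, ZNF841, CLDN17, SLC25A24 and NOX4, with root mean square differences of 0.60, 0.76, 0.81, 0.87, 1.11 and 1.17. Chosen for this likeness, all were low in dual- and paclitaxel-resistant and open in cisplatin-resistant and control cells. The peak of the zinc finger gene ZNF613 averaged 0.339 CPM in dual-, 0.346 CPM in paclitaxel- and 16.3 CPM in cisplatin-resistant cells, against 17.9 CPM in control cells. For NOX4, an NADPH oxidase gene, the averages were 0.322, 0.818 and 8.25 CPM in the same 3 resistant lines, against 25.4 CPM in control cells, so its cisplatin-resistant level was below control, unlike that of PI15. In the locus itself the 4 distal peaks most like PI15 differed by 0.13 to 0.28, while the median over its 78 distal peaks, 1.39, exceeded the value of each of these 6 genes. The genes were limited to peaks with a line mean of at least 10 CPM and the 78 distal peaks were not. Those values were thus not taken at like height.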

How the data were processed

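The authors deposited 1 matrix of CPM values, reads scaled to a common total over the listed peaks, for 159451 consensus peaks, so a change shared by all peaks cannot be seen. Per the submitters' processing notes, Bowtie2, Picard, MACS2 and hg38 were used; the sources used here give no versions, roles, Tn5 shift or peak merging. Libraries were matched by the column name in their labels. Whole reads were recovered from the CPM for 100% of values within 0.01 read. The filter kept 158698 peaks that reached 1 CPM in 2 or more libraries, and limma 3.58.1 (R 4.3.3) was fitted with a variance trend to log2(CPM + 0.5) of all 4 lines, with 4 residual and 98.5 prior degrees of freedom. A peak was called at an adjusted p under 0.05. Such differences understate the change of weak peaks.

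The members, gene lists and bins were chosen with earlier results of these data known. Named peaks were those within 1 kb of the ends of PI15 and CRISPLD1, the 6 highest distal peaks, the 4 most and 4 least like PI15, the strongest at each end of other genes, and the 2 largest increases and decreases per resistant line, not all of which are described; named genes were the 6 most like PI15, CAP genes and neighbours. The fit was tested on simulated data. Alternatives were pseudocounts, filters, median-ratio, TMM and quantile scaling, flank subtraction, a 2-line fit, a replicate block, edgeR 4.0.16 and DESeq2 1.42.0 on recovered reads, and leaving out each library. Sequences were not used here.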

Additional observations from a re-analysis of the deposited data

Results flagged for a closer look

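The PI15 start peak met the rule for lines that differ under the same contrast with control: its difference between dual- and cisplatin-resistant cells, tested directly, was -5.76 on the log2 scale (SE 0.27, limma adjusted p = 1.55e-36). The dual-resistant line was lower than control by -4.83 and the cisplatin-resistant line higher by 0.93, or by 0.33 (limma adjusted p = 0.573) with the median of the flanking peaks subtracted. No group had 4 libraries, so single libraries were not examined for distance from the others.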

How the results depend on the processing

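Each alternative or left-out library gave several related values, namely counts of called peaks, gene-end differences and, for some, distal peaks on the side of PI15. For the dual-resistant decrease from control, all 137 such values kept their direction and call, or a count within 1.5 times. With 1 library left out, the differences were -5.32 to -4.35 at PI15 and -2.38 to -2.17 at CRISPLD1. In dual- against cisplatin-resistant cells 136 of 137 values did so. With 1 library left out, they were -6.25 to -5.28 at PI15 and -2.71 to -2.50 at CRISPLD1. The cause of the changes below was not tested.

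Between cisplatin-resistant and control cells, flank subtraction gave 13 peaks higher and 2 lower, 0.33 at PI15, -0.27 at CRISPLD1, -0.030 at the peak beside the PI15 start and -0.29 at its far end, and quantile scaling gave 0.48 at CRISPLD1 (limma adjusted p = 0.0445). Leaving out 1 library gave 17 to 42 higher, 0 to 1 lower, 0.79 to 1.07 at PI15, 0.30 to 0.36 at CRISPLD1 and 61 to 70 distal peaks on the side of PI15.

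Between dual- and paclitaxel-resistant cells, PI15 was -0.068 with median-ratio scaling, -0.073 with TMM scaling, -0.11 with quantile scaling and -0.76 with flank subtraction, which gave -0.35 at the peak beside it. Higher calls were 4 with median-ratio scaling, TMM scaling and the 2-line fit, 3 with quantile scaling and DESeq2, and 0 with flank subtraction. Lower calls were 1 at a pseudocount of 1 and with DESeq2, 0 at a pseudocount of 2 and in the 2-line fit, and 6 with flank subtraction. CRISPLD1 was not called at a pseudocount of 2 (-0.43), in the 2-line fit (-0.55), with edgeR (-0.59) or DESeq2 (-0.59). Median-ratio scaling left 33 distal peaks on the side of PI15, against 54. Leaving out 1 library gave 4 to 7 higher, 0 to 2 lower, -0.43 to 0.54 at PI15 (-0.43 without dual-resistant replicate 2, -0.17 without paclitaxel-resistant replicate 1, which gave -0.075 at the peak beside it, with 1.01 without paclitaxel-resistant replicate 2), -0.65 to -0.44 at CRISPLD1 and 29 to 54 distal peaks.

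Between paclitaxel- and cisplatin-resistant cells, flank subtraction gave 1 peak higher and -0.64 at CRISPLD1 (limma adjusted p = 0.0799), and leaving out 1 library gave 66 to 77 lower. In paclitaxel-resistant against control cells, described without a test, PI15 was -5.30, -4.33 and -3.64 at pseudocounts of 0.25, 1 and 2 and -4.07 with flank subtraction, CRISPLD1 was -1.53 at a pseudocount of 2, -1.57 with median-ratio and quantile scaling, -1.58 with TMM scaling and -0.91 with flank subtraction, and 5 peaks were at least 2-fold higher with flank subtraction. Leaving out 1 library gave -5.11 to -4.67 at PI15, -1.78 to -1.68 at CRISPLD1 and 60 to 62 peaks at least 2-fold lower.

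Median-ratio scaling moved the median of all peaks to 0.00 between dual- and cisplatin-resistant cells, to 0.02 between dual- and paclitaxel-resistant cells and to 0.00 between paclitaxel-resistant and control cells, against 0.16, 0.23 and -0.14 as deposited. Libraries of different lines share only a replicate number, with deviations correlated at -0.001 to 0.003, and a replicate block gave no change of call: 56 peaks were lower in dual-resistant than in control cells. The depth of 7693492 to 9304798 reads leaves the levels of dual- and paclitaxel-resistant cells around PI15 within a few reads of 0, so differences between them there were mostly not detectable.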

Other observations

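The block around PI15 was dense in peaks. Its 100 kb bins, which were picked after their values were seen, held 31 and 34 tested peaks, against a median of 4 over 22853 bins with a peak, and 409 and 245 bins held as many or more. Their median log2 differences between dual-resistant and control cells were -2.71 and -2.08, and of 1732 bins with at least 20 tested peaks, 3 and 11 had a median that low. ZFHX4, a zinc finger homeobox gene further along the chromosome, was low in paclitaxel-resistant cells alone, at 0.729 and 0.112 CPM there, against 13.5 and 10.9 CPM in control libraries. Its dual-resistant libraries had 9.64 and 8.92 CPM, above the paclitaxel-resistant ones by 3.49 on the log2 scale (limma adjusted p = 2.66e-19).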
